A study of Mus musculus with 4 samples.

Results

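Carnitine transport and the mitochondrial β-oxidation of fatty acids were followed through 7 genes, Slc22a4, Cpt1b, Cpt2, Acadvl, Hadha, Hadhb and Acaa2. Their probes were those that carry one of these symbols in the study's table of changed probes, plus any probe that shares a gene identifier with them. This gave 8 of the 33012 probes on the array: 7 were named by the table, and a second Hadhb probe was added through its shared identifier. The table was drawn from the same contrast that is described here. It takes increases from 0.32 on the log2 scale, but decreases only from 1.5-fold. The increases of these genes therefore follow from how they were picked and are given as a description, with no test. Cpt2, at 0.50 on the log2 scale or 1.41-fold, lay closest to the limit for increases, and smaller increases carry no symbol in the table.

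Oligonucleotide arrays (ABI Mouse Genome Survey) measured total RNA from immortalized brown adipocytes of the FVB strain. Preadipocytes had been transduced with lentivirus carrying either an empty vector or NT-PGC-1α, the short splice form of the transcriptional coactivator PGC-1α encoded by Ppargc1a. Both groups were driven to differentiate for 2 days in a cocktail of insulin, triiodothyronine, isobutylmethylxanthine, dexamethasone and indomethacin, and were then kept for 5 days in 20 nM insulin and 1 nM triiodothyronine. Each group was 1 pool of RNA hybridized to 2 arrays, A and B. The contrast asks which genes respond to raised NT-PGC-1α. No deletion of the cells' own Ppargc1a is named for either group, and whether a line came from 1 clone is not given in the sources used here. The spread between A and B is therefore technical, no value measures how cultures differ, and no p-value for the 2 conditions is given.

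Brown adipocytes burn fatty acids to feed thermogenesis. Long-chain acyl groups cross into the mitochondrion as carnitine esters. Cpt1b, the muscle and brown fat form of the outer-membrane carnitine palmitoyltransferase, attaches carnitine, Slc25a20 exchanges the acylcarnitine across the inner membrane, and Cpt2 returns the acyl group to coenzyme A inside. Acadvl then introduces the double bond in very-long-chain acyl-CoA. The trifunctional protein, with Hadha as its alpha and Hadhb as its beta subunit, carries out hydration, the second oxidation and thiolysis of long chains. Acaa2 is a matrix thiolase of shorter chains. Slc22a4 is a plasma membrane organic cation transporter, related to the carnitine importer Slc22a5, whose best-known substrate is ergothioneine.

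Promoter sequence was available for 5 of the 7 genes from RefSeq (GRCm38.p6), and the 250 bases before each annotated start were searched on both strands. Hadha and Hadhb are shown first, because the genes of both trifunctional protein subunits lie head to head on chromosome 5. Hadha runs on the minus strand and Hadhb on the plus strand, with 272 bases between their annotated starts. The 228 bases that belong to the upstream windows of both genes, chr5:30155003-30155230, plus strand, read as follows.
Hadha and Hadhb: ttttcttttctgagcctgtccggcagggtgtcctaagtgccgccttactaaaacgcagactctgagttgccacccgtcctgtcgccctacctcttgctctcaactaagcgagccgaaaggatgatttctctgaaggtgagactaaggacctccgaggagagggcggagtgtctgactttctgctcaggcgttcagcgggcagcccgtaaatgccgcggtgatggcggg
This stretch has 57.0% G and C. Acadvl is shown because its window was the only one of the 5 to hold a searched motif, the nuclear receptor half-site AGGTCA, given in capitals. The window lies at chr11:70015429-70015678 on the minus strand and is written 5′ to 3′ along the gene.
Acadvl: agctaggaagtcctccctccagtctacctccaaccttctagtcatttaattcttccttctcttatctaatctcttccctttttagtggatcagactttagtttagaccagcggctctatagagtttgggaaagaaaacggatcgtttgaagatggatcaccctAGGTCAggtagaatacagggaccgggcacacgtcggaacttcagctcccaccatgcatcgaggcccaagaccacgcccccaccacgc
The half-site starts 87 bases before the annotated start, on the strand of the gene. It was present in 14.0% of the 250-base upstream stretches of 32851 RefSeq windows. Of the longer motifs, AGGTCA repeated with 1 base between occurred in 0.0335% of those stretches, TNAAGGTCA in 1.14%, GCATGCGC in 2.26% and ACCGGAAG in 1.72%. The first 2 of these contain the half-site, so their matches overlap with it. These letters were not found in the upstream stretches of Slc22a4, Cpt2, Hadha or Hadhb, which says nothing about positions outside them. The arrays measured RNA and not binding.

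All 8 probes gave higher signals on both NT-PGC-1α arrays than on either empty vector array. Over all probes 36.3% were higher and 35.4% lower without overlap, and nothing is read from the count, since the same contrast chose the genes. Signals below are quantile-normalized intensities in arbitrary units, and each fold is the ratio of the geometric mean signals of the pools, NT-PGC-1α over empty vector. The range after each fold is the lowest and highest ratio over the 4 pairings of 1 NT-PGC-1α array with 1 empty vector array. Probes differ in how brightly they bind, so a level is compared only within a probe.

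**Figure D1:**
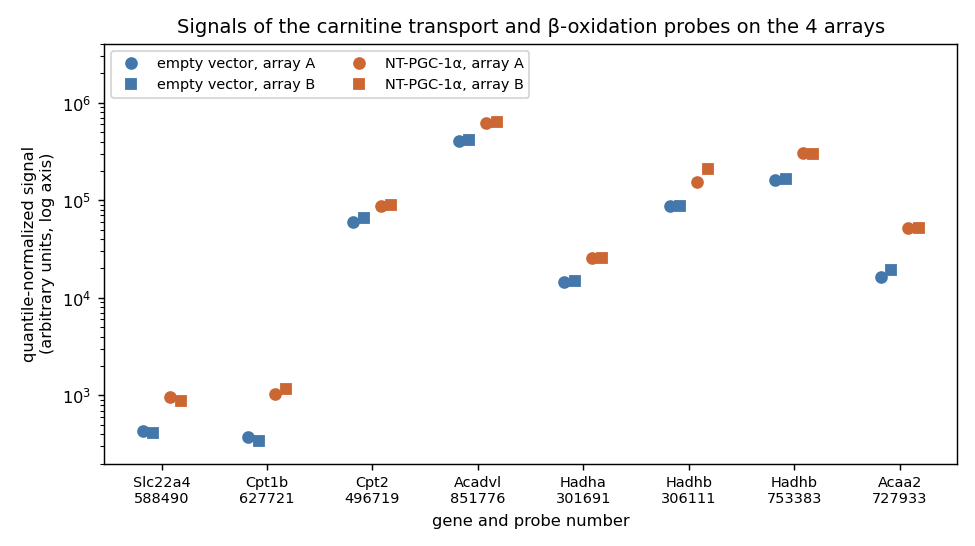
Quantile-normalized signal (log axis, arbitrary units) of the 8 probes on the 4 arrays, blue for empty vector and orange for NT-PGC-1α, circles for array A and squares for array B. The orange points lie above the blue points for every probe, and the second Hadhb probe, 306111, shows the widest gap between the NT-PGC-1α arrays, 154846 and 209415.

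The largest increase was that of Cpt1b, the gate of long-chain fatty acid entry. The signals of its probe (627721, identifier mCG6793.2) were 376 and 337 in the control pool, then 1036 and 1162. The difference was 3.08-fold (2.75 to 3.44). Both pools were far apart against the ratio of 1.12 between the NT-PGC-1α arrays, but this is a dim probe. Its empty vector signal ranked at percentile 46.7 of all probes, and it passed the array median only through the NT-PGC-1α pool.

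In RefSeq, Cpt1b neighbours Chkb, a choline and ethanolamine kinase, and an annotated readthrough gene spans both. Chkb was looked up for its position. Its signals were 12253 and 11316 in the control pool, then 16534 and 18298. The groups did not overlap, and the difference was 1.48-fold (1.35 to 1.62). Which transcript the Cpt1b probe reads was not tested.

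Cpt2, the inner-membrane partner, showed the smallest difference of the 7 genes. Its probe (496719, mCG17985.1) gave 59752 and 65369 for the control pool against 87397 and 88908 for NT-PGC-1α, 1.41-fold higher (1.34 to 1.49). The groups did not overlap, and every pairing stayed under 1.5-fold. The signal was bright, at percentile 95.8. The carrier between both transferases, Slc25a20, lay between them in size of change, with 5378 and 5871 against 9324 and 9389, 1.67-fold (1.59 to 1.75).

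Slc22a4, the cation transporter of the plasma membrane, rose from 437 and 410 to 974 and 873 (588490, mCG13777.2). This was 2.18-fold (2.00 to 2.38), and the arrays of the pools lay clearly apart. As with Cpt1b, the probe was dim, at percentile 50.4 with empty vector, and it did not exceed the array median on both empty vector arrays.

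Acadvl, which opens the oxidation of very long chains, was read by a bright probe (851776, mCG22500.3) at percentile 99.1. Its signals went from 401529 and 414036 to 624387 and 627791. The increase of 1.54-fold (1.51 to 1.56) had the tightest range of all 8 probes. The arrays of each pool nearly coincided, while the pools stood apart.

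By the table-named probes, the 2 subunits of the trifunctional protein moved by similar amounts. Hadha (301691, mCG11632.2) went from 14543 and 15003 to 25879 and 25380, 1.74-fold (1.69 to 1.78). The table-named Hadhb probe (753383, mCG1039847.1 and mCG11629.2) gave 161239 and 164475, then 302806 and 295284, 1.84-fold (1.80 to 1.88). Groups did not overlap at either gene, and the 2 ranges did not meet, although they came from probes of different brightness. This Hadhb probe carries a further identifier, and which gene or transcript it reads was not tested.

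The second Hadhb probe (306111, mCG11629.2) was not in the table of changed probes. It read 87184 and 87006 in the control pool, then 154846 and 209415. Its difference of 2.07-fold (1.78 to 2.41) took in the value of the other Hadhb probe. Its empty vector arrays agreed closely, but its NT-PGC-1α arrays differed 1.35-fold, the widest gap in either pool among the 8 probes. On the A arrays alone the difference was 1.78-fold, and on the B arrays alone 2.41-fold.

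Acaa2, the matrix thiolase, came next to Cpt1b in size. Its probe (727933, mCG22649.2) gave 16469 and 19437 for the control, against 51760 and 52483. This was 2.91-fold (2.66 to 3.19), at a bright probe of percentile 89.7. The arrays with NT-PGC-1α were nearly equal, and the 1.18-fold gap between the empty vector arrays set most of the range.

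In descending order the folds ran Cpt1b, Acaa2, Slc22a4, Hadhb, Hadha, Acadvl and Cpt2, by the table-named probes. The pairing ranges of Cpt1b and Acaa2 overlapped, so their order is not fixed by these arrays. The ranges of the other neighbours in this order, from Acaa2 down, did not overlap. With the second Hadhb probe in place of the first, the ranges of Slc22a4, Hadhb and Hadha overlapped in turn. These ranges hold technical error only.

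With a call set at 1.5-fold or more and no overlap between the arrays of the pools, 6 of the 7 table-named probes and 7 of all 8 were called higher, and Cpt2 was not. Over all probes 16.9% were called higher by this rule. At a log2 fold of 0.32, the limit of the table, all 8 were called, against 26.2% of all probes. The median fold of the 7 table-named probes was 1.84, against 1.01 over all probes. These counts too follow from how the genes were picked. Of all probes called at 1.5-fold in either direction, 49.0% were higher, and 71.1% with centring on the 75th percentile.

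The share of probes called was lower among bright probes. Part of this is built in, because a probe that rises from below the median cannot pass a filter on all 4 arrays, and because the empty vector signal is also the denominator of the fold. Among probes above the array median on all 4 arrays, 8.34% were called higher. Of the 8 probes described, 6 passed this filter and 5 of them were called. Cpt1b and Slc22a4 did not pass. Among the 3302 probes brightest with empty vector, 3.57% were called, and 3 of the 4 probes found there, those of Acadvl and Hadhb, were called. With limma, which set the pools against the error between technical arrays, 10.0% of all probes passed an adjusted p of 0.05 with 1.5-fold or more, and the same 6 table-named probes did.

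**Figure D2:**
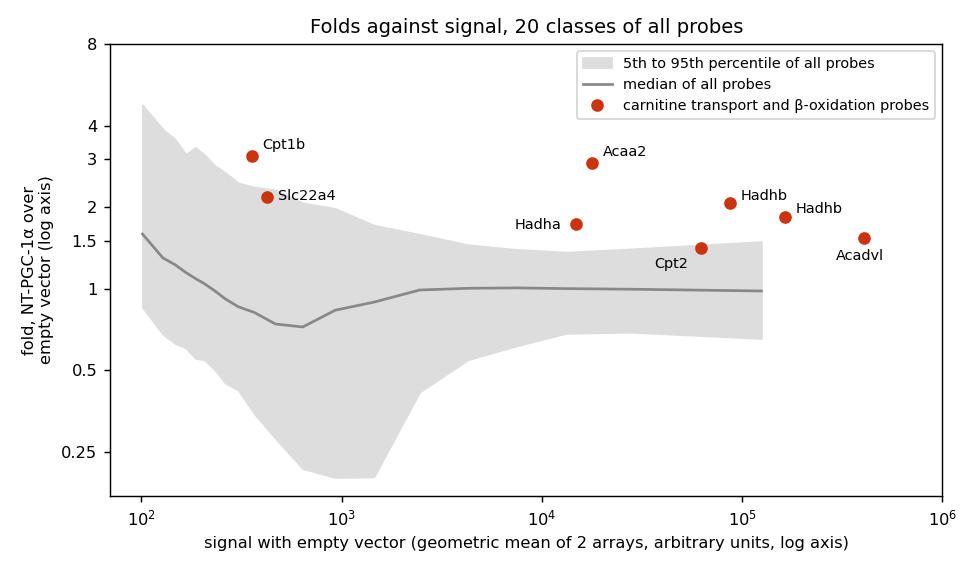
Fold of NT-PGC-1α over empty vector against empty vector signal (both log axes); the grey band spans the 5th to 95th percentile of all probes in 20 signal classes, the grey line is their median, and red points are the 8 probes. Folds of dim probes spread widely, with a band from 0.344 to 2.37 in the class of Cpt1b, against 0.684 to 1.36 in the class of Hadha and Acaa2.

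Within their own signal class, Cpt2 and Slc22a4 lay inside the central 90% of the folds of all probes, and the other 6 probes lay above it. The upper bound of that range was 1.49 in the brightest class, which holds the probes of Cpt2, Acadvl and Hadhb. It was 2.31 in the class of Slc22a4. The same fold thus stood differently against the array at bright and at dim probes. The genes were picked for their increase, so where their probes lay against this range follows in part from that choice.

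The wider fatty acid pathway moved in both directions. Of 99 genes listed by role, 35 had a named probe. Of those, 20 were called higher and 5 lower at 1.5-fold without overlap, and 10 were neither. Over all probes, 16.9% were called higher and 17.6% lower. All 35 took their names from the table of changed probes, so these counts describe a selected set, and the other 64 genes were not analysed here. Without the 7 genes and Ppargc1a, 27 probes had a median fold of 1.48, with 13 called higher, 5 lower and 9 neither. The table takes smaller increases than decreases, so the excess of higher probes and this median follow in part from the naming. Nothing is read from them.

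Among the other shuttle genes were both acetyl-CoA carboxylases, whose product malonyl-CoA inhibits the outer carnitine palmitoyltransferases. Acacb, the mitochondrial form, went from 32553 and 33462 to 46127 and 44681, 1.38-fold (1.34 to 1.42). Acaca, the cytosolic form, had a table-named probe (690906, mCG141310 and mCG134701.1) at 263 and 362 against 3490 and 3169, a 10.8-fold difference (8.75 to 13.2). The other probes of mCG141310, which carry that identifier alone, did not share this change. A bright Acaca probe (438015) read 49297 and 50603 against 54126 and 57127, 1.11-fold higher, and a dim one (715542) overlapped between the pools. What the second identifier stands for is not given in the sources used here, so which gene or transcript the first probe reads was not tested.

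Of the other β-oxidation enzymes, Eci1, which shifts double bonds of unsaturated acyl-CoA, rose from 84816 and 87184 to 172850 and 164475, 1.96-fold (1.89 to 2.04). Ech1, a dienoyl-CoA isomerase, was 1.48-fold higher without overlap and missed the call. Acat1, the thiolase of the last step and of ketone bodies, went the other way. Its signals dropped from 1258 and 940 to 210 and 276, 4.52-fold lower (3.41 to 5.99). As NT-PGC-1α over empty vector this is a fold of 0.221. It lay inside the central range of all folds in its signal class, whose lower bound was 0.201 and median 0.832. The Acat1 probe exceeded the array median only with empty vector, and its empty vector arrays differed 1.34-fold. It was the only table-named β-oxidation probe that was lower. No probe was named for the medium- and short-chain dehydrogenases Acadm and Acads or for the electron carriers Etfa and Etfb.

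Enzymes that activate or hydrolyse acyl-CoA had 6 named genes, 2 of them called higher and 1 lower, against 16.9% and 17.6% of all probes. Acot2, a mitochondrial acyl-CoA thioesterase, rose 5.14-fold (4.55 to 5.80) at its table-named probe, from 303 and 368 to 1760 and 1672. A second Acot2 probe (663149) was 2.48-fold higher, and another (493258), which carries a further identifier, overlapped between the pools. Acsl4, an acyl-CoA synthetase that prefers arachidonate, was 1.68-fold lower, and its second probe 1.21-fold lower. The probes of 1 gene thus gave folds of different size, as at Acaca, whereas at Hadhb the ranges of the 2 probes overlapped.

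Uptake and binding proteins were split. Apoc2, the activator of lipoprotein lipase, was 1.58-fold higher, and Angptl4, an inhibitor of that lipase, 1.57-fold higher. The lipid-binding proteins Fabp2 and Fabp5 were 2.23-fold and 1.60-fold lower. At Fabp5 a second probe (893211), which carries another identifier too, was 1.06-fold lower with overlapping arrays. In lipolysis and esterification, 1 of 3 named probes was called higher, against 16.9% of all probes. It was that of Lpin3, a phosphatidate phosphatase, at 2.87-fold.

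Peroxisomal oxidation had 3 named probes, all higher without overlap, as were 36.3% of all probes. Of the 3 named probes 2 were called, against 16.9% of all probes. These 3 owe their names to the table of changed probes. Acoxl, an acyl-CoA oxidase-like gene, was 3.78-fold higher (2.82 to 5.07) at a dim probe. Phyh, which opens the α-oxidation of phytanic acid, was 1.68-fold higher. Propionyl-CoA use had 2 named genes. Mmaa, a chaperone of cobalamin for methylmalonyl-CoA mutase, was 3.74-fold lower (3.06 to 4.58). As NT-PGC-1α over empty vector this is a fold of 0.267. It lay inside the central range of all folds in its signal class, whose lower bound was 0.216. Pcca, a propionyl-CoA carboxylase subunit, was 1.40-fold higher.

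All 4 named regulators and signals, of 13 listed, were called higher, against 16.9% of all probes. These 4 owe their names to the table of changed probes. Ppargc1a, the overexpressed gene, read 114 and 136 in the control pool, then 1078 and 714, 7.06-fold (5.26 to 9.46). This probe was dim, at percentile 6.54 with empty vector, and its NT-PGC-1α arrays differed 1.51-fold. A second Ppargc1a probe (747719) gave 226 and 149, then 258 and 345, 1.63-fold higher (1.14 to 2.32). It was dim too, at percentile 21.6 with empty vector, and did not exceed the array median on both arrays of either pool. Where either probe lies relative to the NT-PGC-1α construct is not given in the sources used here, so the second value checks nothing about the label. Ppara, a nuclear receptor that drives fatty acid oxidation genes, rose from 5616 and 5908 to 13902 and 13488, 2.38-fold (2.28 to 2.48). Ucp3, a mitochondrial uncoupling protein homologue, read 173 and 190 in the control pool, then 1018 and 1064. This was 5.74-fold higher (5.36 to 6.15), at a dim probe of percentile 21.2 with empty vector. The hormone gene Fgf21 was 1.66-fold higher (1.51 to 1.83).

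**Figure D3:**
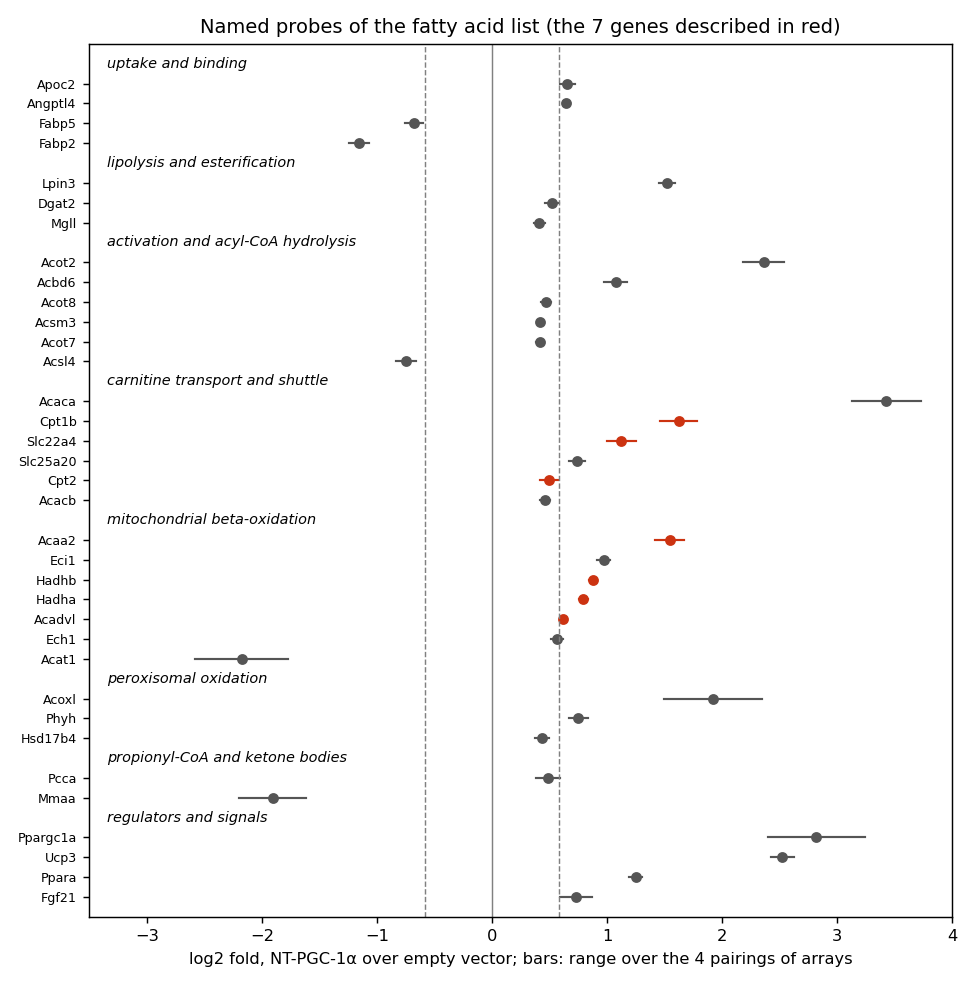
Log2 fold of NT-PGC-1α over empty vector for the 35 table-named probes of the fatty acid list, grouped by role, with bars for the range over the 4 array pairings and the 7 genes described in red; dashed lines mark 1.5-fold. In mitochondrial β-oxidation 6 of 7 probes lie above 0 and Acat1, at -2.18, lies below.

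Respiratory complex I, another mitochondrial set named from the same table, gave a reference for size. Of its 7 named subunit probes 3 were called higher and 1, that of Ndufb2, lower, with a median fold of 1.41. Over all probes 16.9% were called higher and 17.6% lower. The 7 probes of carnitine transport and β-oxidation had a median of 1.84. Both sets were picked from the same arrays, and the limits of the table shape both medians. The difference between the sets was not tested.

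Markers of the cells in the culture could be read only where the table of changed probes named them. All 20 marker probes with a name took it from that table, so a change in each followed from the choice. Only the direction is a description, and the table takes smaller increases than decreases. Without overlap 36.3% of all probes were higher and 35.4% lower. Of 17 adipocyte markers 2 were named, Retn and Ebf2, both higher. Ucp1, Pparg, Fabp4 and Adipoq had no named probe, so the label of the cells could not be checked on its defining markers. Of 8 preadipocyte and fibroblast markers 6 were named, all lower. Of 9 muscle markers 7 were named, 4 higher and 3 lower, and of 6 macrophage and mast cell markers 5 were named, 1 higher and 4 lower.

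Signals summed over a list add probes of unlike brightness and are mostly set by 1 probe. The adipocyte sum, 92.7% of it Ebf2 on empty vector array A, went from 11663 and 11303 to 19329 and 18184. The preadipocyte and fibroblast sum, 59.2% Col3a1, went from 518700 and 555200 to 328590 and 347552. The muscle sum, 78.0% Mb (myoglobin), went from 36027 and 35915 to 115871 and 111589. That of macrophage and mast cell markers, 78.0% Mcpt6, a mast cell protease, went from 32341 and 32002 to 20553 and 18696. No named marker was at 0, but the dimmest signal class of all probes also had a median of 101 with empty vector. The muscle probes of Actc1 and Tnnt3, both higher, ranked at percentiles 8.91 and 15.6 with empty vector. That of Myh4, which was lower, ranked at 29.9 and did not exceed the array median on both arrays of either pool. What the markers contribute to the differences of the fatty acid genes was not tested, and in bulk RNA fewer cells of a type and less RNA per cell cannot be told apart.

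Median deposited signals were alike, from 395 to 448, but their 75th percentile went from 3780 and 3335 with empty vector down to 3147 and 2779. The correlation of log2 signals across probes was 0.991 between the empty vector arrays and 0.990 between the NT-PGC-1α arrays, and the median probe differed 1.12-fold and 1.13-fold within the pools. Of all probes 1342 took a symbol from the table and 294 only from an accession, and 31376 had none.

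The folds of the 8 probes were recomputed under 10 other settings of normalization, background, offset and left-out array. None of the 80 values fell below 1. Cpt1b ran from 2.58 to 3.42, Acaa2 from 2.61 to 3.18, Slc22a4 from 1.93 to 2.40 and Hadha from 1.55 to 1.86. The table-named Hadhb probe ran from 1.78 to 2.13 and the second from 1.77 to 2.40. Acadvl, from 1.48 to 1.77, dropped under 1.5-fold without normalization, with median centring and with cyclic loess. Cpt2, from 1.33 to 1.60, passed 1.5-fold only with centring on the 75th percentile, which also raised the median log2 fold of all probes from 0.01 to 0.22.

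**Figure D4:**
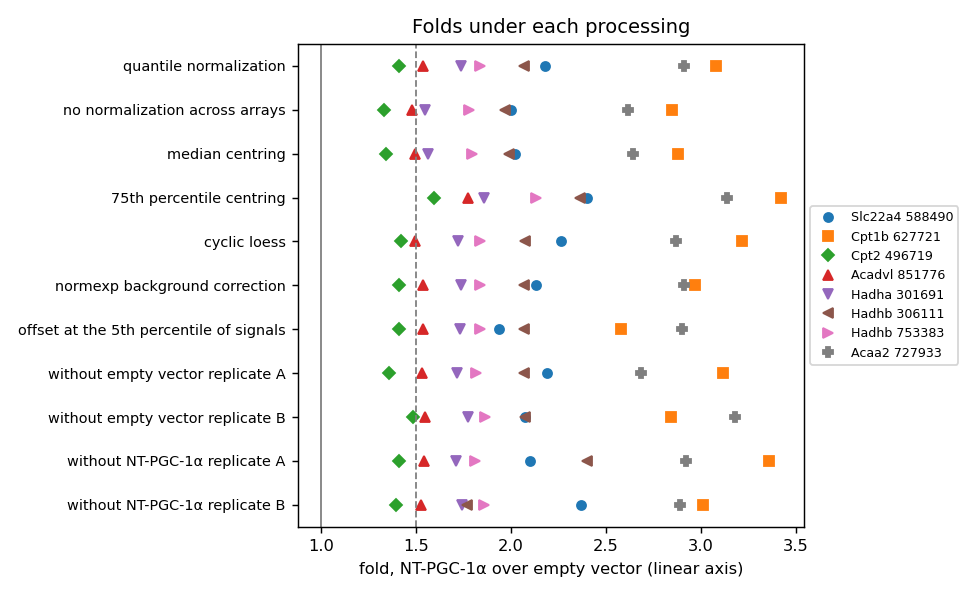
Fold of NT-PGC-1α over empty vector (linear axis) of the 8 probes under quantile normalization and the 10 other settings, one row each, with the dashed line at 1.5. Every point lies above 1, the points of Cpt1b and Acaa2 stay above 2.5, and those of Acadvl and Cpt2 lie on both sides of the dashed line.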

How the data were processed

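Total RNA of immortalized brown adipocytes was measured on 4 ABI arrays, 2 technical arrays for each of 2 RNA pools. The authors deposited intensity values per probe without normalization across arrays, and R 2.2.1 is named in the submitters' processing notes. Whether background had been subtracted is not given in the sources used here. The number of arrays limits the precision.

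Signals were log2-transformed and quantile-normalized (limma 3.58.1, R 4.3.3), as the study's methods did, and further steps used Python 3.11.15, numpy 2.4.6, pandas 2.3.3, scipy 1.17.1 and matplotlib 3.10.9. A fold is the difference between pool means of log2 signal, with the range over 4 pairings of arrays. A probe was called at 1.5-fold with no overlap between pools. Alternatives were no normalization, centring on the median or the 75th percentile, cyclic loess, normexp with an offset of 50, an added offset at the 5th percentile of signals, left-out arrays, filters on dim probes, a log2 fold threshold of 0.32, limma, limma with array letter as a block, and the methods' t-test. The scripts were tested on simulated data.

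Names came from the study's table of changed probes (symbols only) or from RefSeq accessions. Its fold changes and p-values were not used. Genes named were the 7 members, Ppargc1a and each gene of a fatty acid list, complex I or marker list with a named probe. Neighbours of a member could be named for position. Members and lists were chosen with earlier results of these data known.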

Additional observations from a re-analysis of the deposited data

How the results depend on the processing

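The median log2 fold of the 7 table-named probes, 0.88 with quantile normalization, was 0.83 without normalization, 0.85 with median centring, 1.09 with centring on the 75th percentile and 0.96 with probes of a gene averaged. With 1 array left out it ran from 0.85 to 0.90. Of 80 values of single probes, 22 moved by more than the SD over array pairings, 58 did not, and none changed sign. The count of all probes called higher, 5565, was 9227 with centring on the 75th percentile, with 3759 lower in place of 5802, 8661 at a log2 fold of 0.32, 2847 among probes above the array median in at least 1 group, 3306 with limma and 3094 with the methods' t-test. Keeping probes above the median on all 4 arrays, a filter chosen after seeing the data, left 1138, and 13 of the fatty acid list in place of 20.

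Across probes, the deviations of both A arrays had a correlation of -0.02. A shift of a whole array does not enter this value. Median deposited signals were higher on array A in both pools, 448 against 398 with empty vector and 442 against 395 with NT-PGC-1α. Whether the letters pair the pools was thus not settled. With the letter as a replicate block, limma had 1 residual degree of freedom and called 0 of the 7 table-named probes, 0 of the fatty acid list and 0 of all probes. At an unadjusted p of 0.05 it gave 12442 probes, all 7 included, and limma without the block called 8145 at any fold. Dim probes limit Cpt1b and Slc22a4, whose folds fell to 2.58 and 1.93 with the added offset. With 1 pool per group, no setting measures the spread between cultures.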
